A study of Mus musculus with 135 samples.

Results

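The 10 genes described here make and load the class I molecules of the mouse major histocompatibility complex (MHC): H2-K1, H2-D1, B2m, Tap1, Tap2, Tapbp, Psmb8, Psmb9, Psmb10 and Nlrc5. They were chosen by gene symbol and are 10 of the 55416 genes listed in each of the tables of read counts per gene, of which one covers the cerebral cortex and the other the hippocampus. RNA came from 6-month-old male Townes mice, in which human globin genes stand in for the mouse ones. SS mice carry the sickle form and AA mice the normal human form. Repeat social defeat (RSD) is a stress model in which group-housed residents lose repeated encounters with a hostile male. Minocycline, an antibiotic, was given in the drinking water from the day before RSD to the day of its last session. The other mice drank plain water. Brains were taken after behavioural tests that followed these days and included fear conditioning with foot shocks. In the cortex there were 12 AA, 3 AA + RSD, 18 AA + RSD + minocycline, 1 AA + minocycline, 8 SS, 6 SS + RSD, 14 SS + RSD + minocycline and 4 SS + minocycline libraries, which makes 66. The hippocampus had 64, with 11 AA and 7 SS libraries and the same number as the cortex in every other group. Each library is 1 mouse and each mouse gave at most 1 library per tissue, so p-values within a tissue measure the spread between mice. Most mice gave a library of each tissue, and these are treated as separate in the test between tissues unless the mouse is named as a block.

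MHC class I molecules carry short peptides from inside the cell to its surface, where CD8 T cells and natural killer cells read them. H2-K1 and H2-D1 encode the classical heavy chains and B2m encodes beta-2 microglobulin, the light chain that every class I heavy chain needs. Psmb8, Psmb9 and Psmb10 encode the catalytic subunits that turn a proteasome into an immunoproteasome, which cuts the peptides. Tap1 and Tap2 form the transporter that pumps them into the endoplasmic reticulum, and Tapbp encodes tapasin, which holds the empty class I molecule at that transporter. Nlrc5 encodes the transactivator that drives transcription of the class I genes. Interferons raise this whole set, and in the healthy brain the levels are low, with endothelial cells and microglia among the main sources.

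On GRCm39, 7 of the 10 genes lie within the MHC on chromosome 17. These are Tapbp (34134873 to 34148267, plus strand), H2-K1 (34214987 to 34219321, minus strand), Psmb9 (34400960 to 34406738, minus strand), Tap1 (34405996 to 34416199, plus strand), Psmb8 (34416690 to 34420428, plus strand), Tap2 (34422501 to 34435829, plus strand) and H2-D1 (35481691 to 35486475, plus strand). B2m lies on the plus strand of chromosome 2 (121977957 to 121983594). Nlrc5 (95160984 to 95253900, plus strand) and Psmb10 (106662362 to 106665077, minus strand) lie on chromosome 8. The reads fell on the exons of these genes, and the annotation places genes on the opposite strand over part of them. Psmb9 shares 19.6% of its exonic bases with Tap1, and Tapbp shares 33.02% of its exonic bases with genes of the opposite strand. The strand setting of the counting is not given in the sources used here, so reads of such a pair may not be fully separated. Of all 85-base windows along the transcripts, 2.92% for H2-K1, 3.64% for H2-D1 and 13.3% for Tapbp also occurred in another gene. For H2-K1 and H2-D1 the other genes were further class I heavy chains, and for Tapbp it was chiefly Zbtb22.

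Promoter stretches are shown because several members moved together across mice, as described below. Class I promoters carry a compact run of elements, in which an X2 box holds the letters TGACG and a Y box holds CCAAT. The RefSeq promoter table (GRCm38.p6, 250 bases before to 50 after each start) had entries for 8 of the 10 genes, without Tap2 and Nlrc5. The stretches run from 5′ to 3′ on the strand of the named gene, at chr17:34000359-34000458 (minus) for H2-K1, chr17:35262923-35263022 (plus) for H2-D1, chr2:122147548-122147638 (plus) for B2m and chr17:34187331-34187555 (plus) for Tap1. Capitals mark an NF-kappaB run, which opens the H2-K1 and H2-D1 stretches, and TGACG and CCAAT, which reads ATTGG on the other strand. They also mark an interferon-stimulated response element, spelled GAAA, any 2 letters and GAAA again, which opens the B2m stretch. Only exact matches to these letters were searched for and marked, so other forms of the elements stay in lower case.
H2-K1: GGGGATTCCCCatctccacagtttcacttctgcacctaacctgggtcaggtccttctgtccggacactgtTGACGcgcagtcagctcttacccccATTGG
H2-D1: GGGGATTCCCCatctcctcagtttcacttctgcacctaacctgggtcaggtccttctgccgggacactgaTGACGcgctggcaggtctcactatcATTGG
B2m: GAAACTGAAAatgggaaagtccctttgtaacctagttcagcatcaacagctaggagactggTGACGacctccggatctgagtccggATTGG
Tap1: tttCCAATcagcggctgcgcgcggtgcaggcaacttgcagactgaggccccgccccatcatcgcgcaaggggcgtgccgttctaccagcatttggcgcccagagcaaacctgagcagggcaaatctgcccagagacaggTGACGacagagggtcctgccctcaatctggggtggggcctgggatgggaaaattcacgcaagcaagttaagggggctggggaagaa

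The H2-K1 and H2-D1 stretches matched at 89 of 100 bases. The Tap1 stretch is the whole 225 bases between the start sites of Tap1 and Psmb9 in the RefSeq promoter table. These starts point away from each other, so the stretch lies upstream of both. In the GRCm39 annotation given above, the ends of both genes are placed differently and overlap. On both strands TGACG was found in the promoters of 5 of the 8 genes (H2-K1, H2-D1, B2m, Tap1 and Psmb9) and CCAAT in 6 (the same 5 and Tapbp), against 20.8% and 37.4% of all promoters in the table. The TGACG and CCAAT of Tap1 and of Psmb9 are the same letters of their shared stretch, counted once for each gene. Their order and spacing differ from the compact run. In the Tap1 stretch CCAAT lies at -222 to -218 bases from the start, far before TGACG at -86 to -82. In the H2-K1, H2-D1 and B2m stretches TGACG comes first and ATTGG closes the stretch. The exact NF-kappaB run, found for H2-K1 and H2-D1, stood in 0.0304% of all promoters. That share counts a single run of letters and not NF-kappaB sites in general. The exact letters of the interferon-stimulated response element, found for B2m, stood in 3.44%. The letters TTCNNNGAA of an interferon gamma activated site were found for Psmb8 and stood in 8.30% of all promoters. The Psmb10 window held none of these 5. A match of letters is a description of the window and not a measured binding site. Other spellings were not searched for, so a window without a match may hold another form of the element.

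The libraries held 16295042 to 107713193 reads on genes (cortex) and 12869149 to 68731008 (hippocampus), so that single-library counts ran from 6 reads (Nlrc5, hippocampus) to 11553 (B2m, hippocampus). The libraries of 2 mice held identical counts under different group labels in each tissue and were left out. The mouse numbers fall into series that are called A, B and C here. All + RSD groups without minocycline were of series A, all + RSD + minocycline mice were of series B or C, and the AA and SS control groups held both A and B. Minocycline in defeated mice and number series therefore cannot be told apart. Mouse 9674 (AA + RSD) was the single mouse of 64 with hippocampal marker genes higher in its cortex library (755.7 against 204.3 CPM, the reads of a gene scaled to a fixed library total) and cortical markers higher in its hippocampus library (878.8 against 285.7). Red blood cell genes, which separated most SS from AA libraries, went against or stood between the labels in 4 mice (5844, 5853 and 9631, labelled AA, and 7078, labelled SS). Leaving those 4 out changed no count of called members.

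Per kilobase of exon, the median level in AA cortex fell in the order B2m (22.96 CPM per kb), Psmb10 (19.1), H2-D1 (13.2), H2-K1 (7.12), Tapbp (5.96), Tap2 (2.06), Psmb8 (0.648), Tap1 (0.440), Psmb9 (0.280) and Nlrc5 (0.0814). The light chain and the heavy chains were thus at the top with one immunoproteasome subunit, and the other subunits, the transporter and Nlrc5 were at the bottom. In AA hippocampus the order was the same, from 20.3 CPM per kb for B2m to 0.1002 for Nlrc5. Some neighbours were not separated in every mouse. B2m was above Psmb10 in 10 of 12 AA cortex libraries, H2-K1 above Tapbp in 9 of 12 and Tap1 above Psmb9 in 11 of 12. In the hippocampus Psmb8 was above Tap1 in 7 of 11, and their levels (0.809 and 0.728 CPM per kb) did not differ beyond the spread.

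**Figure D1:**
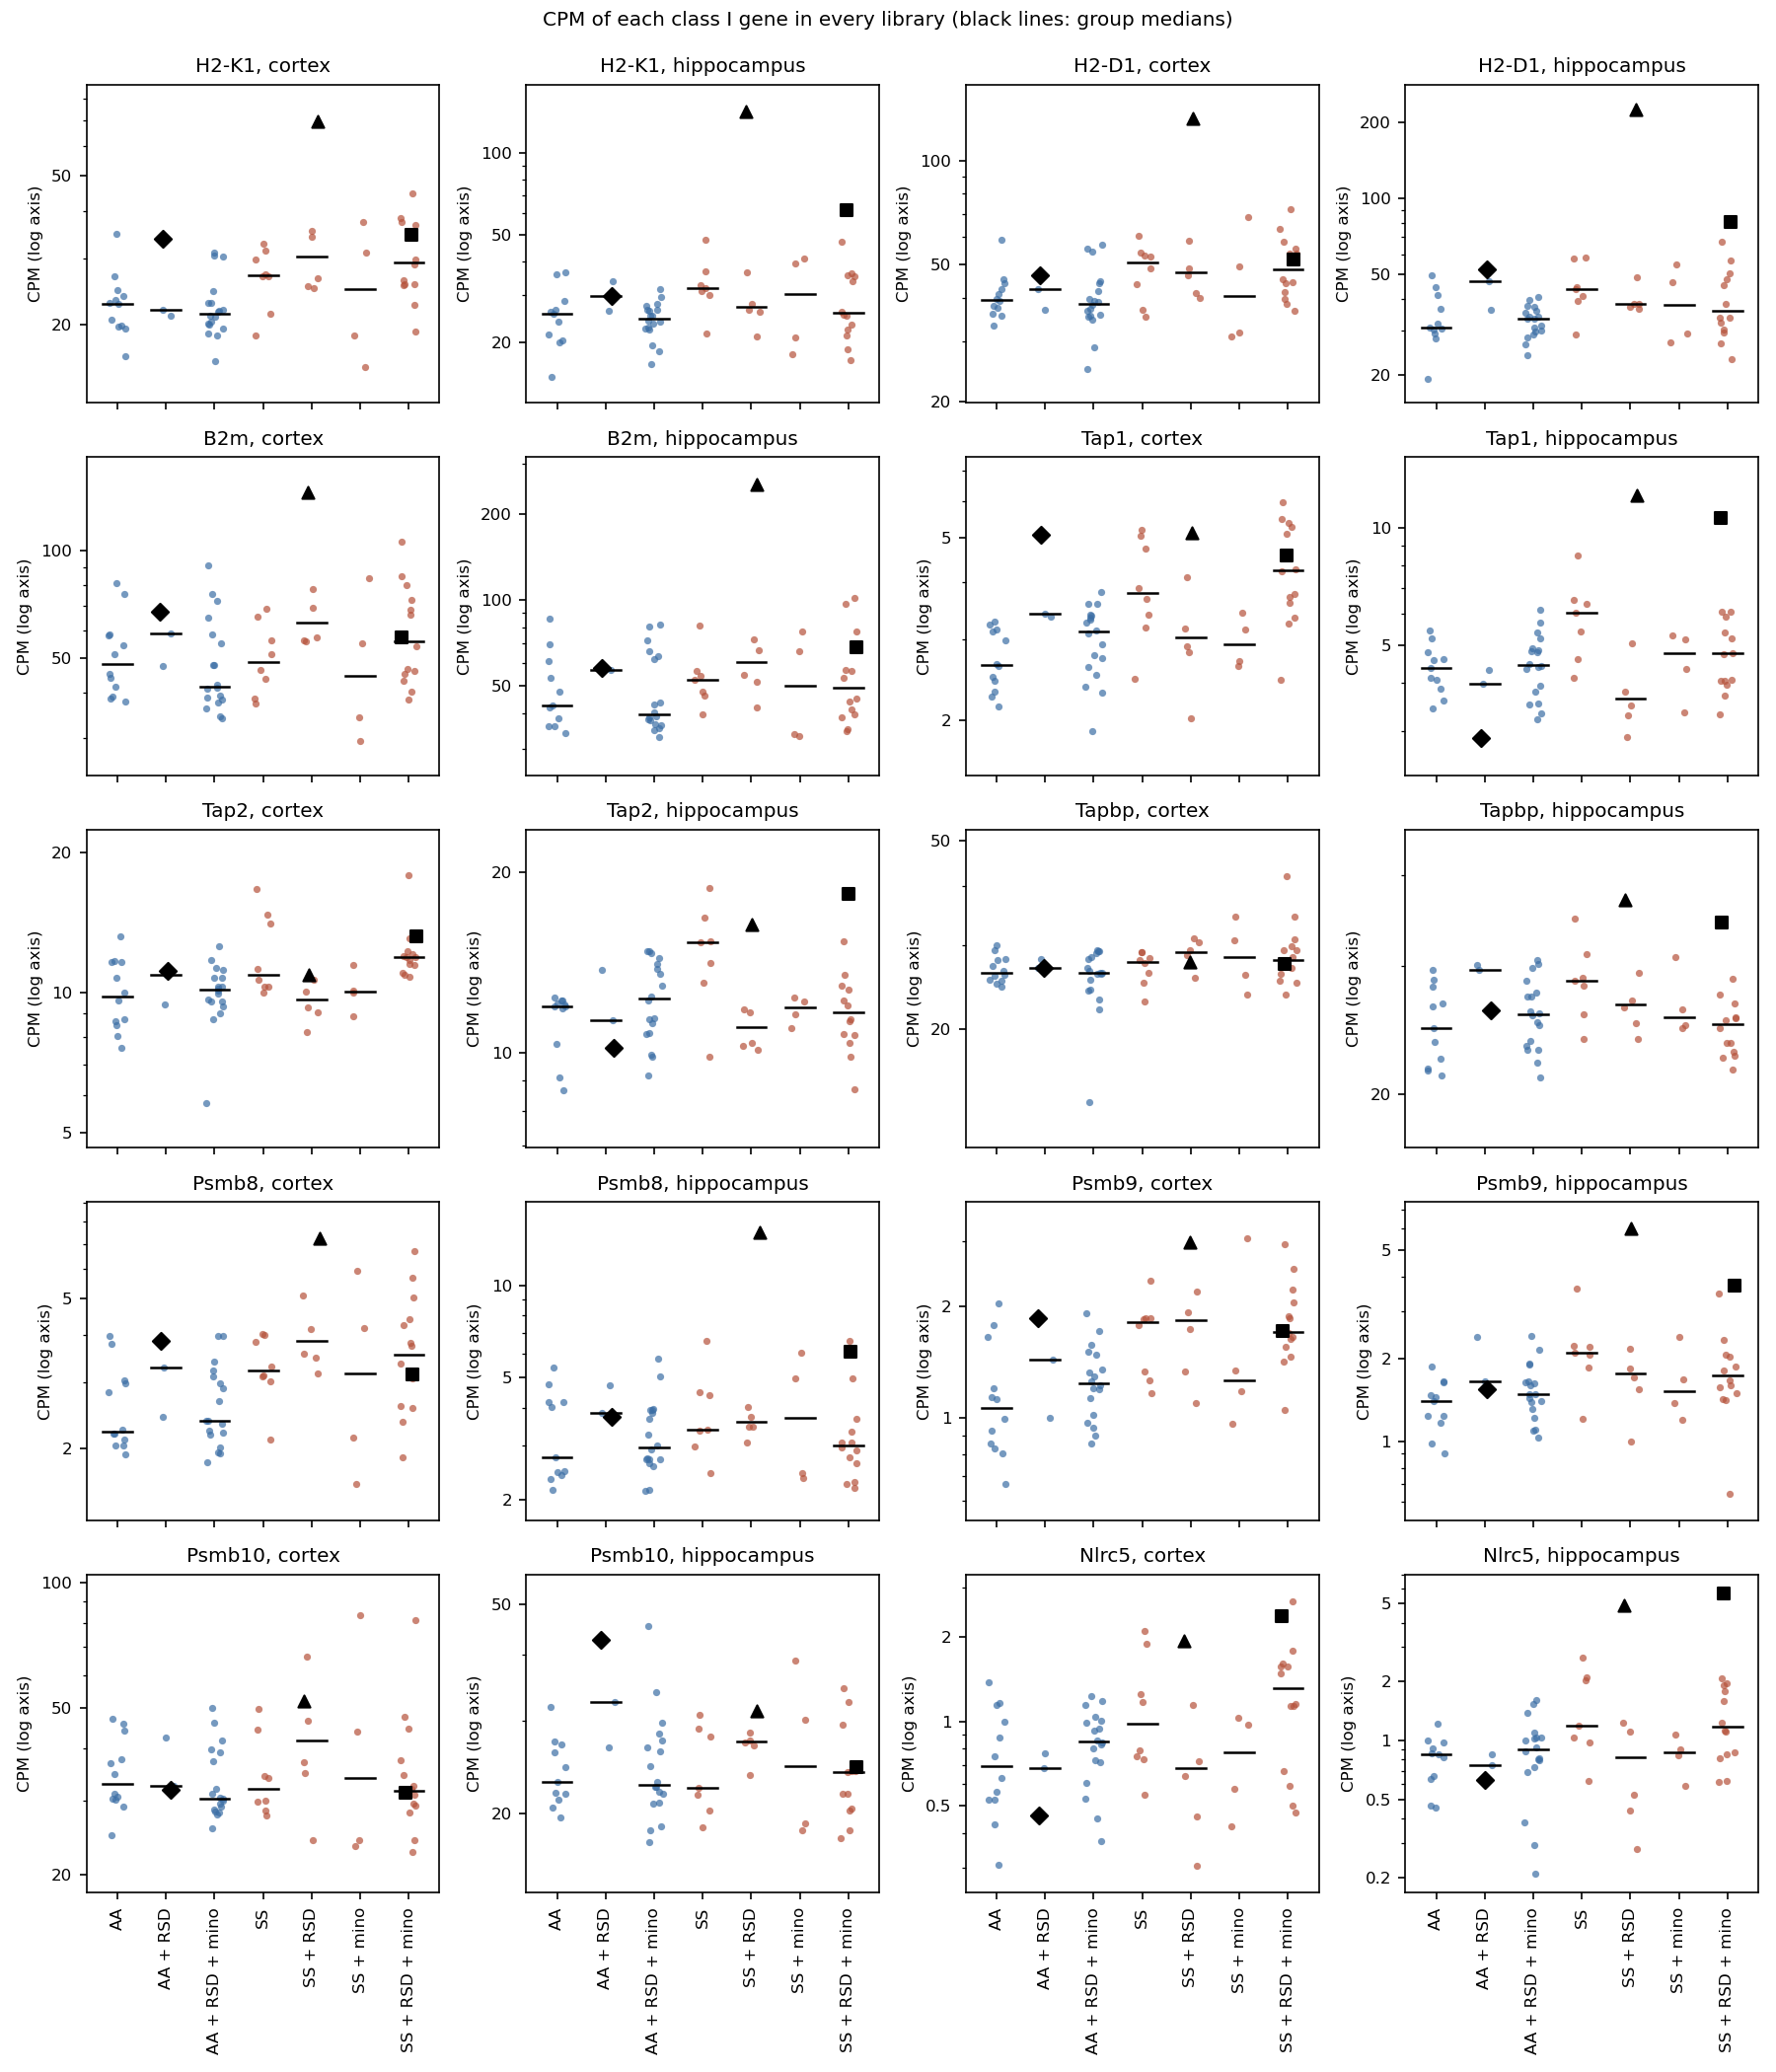
CPM (log axis) of each of the 10 genes in every library of the 7 groups with more than 1 mouse, for the cortex and the hippocampus, with 1 point per mouse (AA blue, SS red), black lines at the group medians, and black symbols for mouse 9615 (triangle), 9894 (square) and 9674 (diamond). Most groups overlap, and mouse 9615 lies apart from its group, with H2-K1 at 143 CPM in the hippocampus where the other 5 run from 21.02 to 36.5.

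The levels of these genes also followed a property of the libraries. The share of reads outside genes fell into separate classes, which were split at 7% after the values had been seen. In the cortex 28 libraries held 3.68% to 6.09% and 38 held 7.34% to 13.9%, and in the hippocampus 28 held 3.98% to 6.49% and 36 held 7.47% to 24.01%. Of the mice with both tissues, 59 of 64 had both libraries in the same class. In AA cortex, B2m ran from 51.3 through a median of 58.2 to 81.1 CPM in the 6 libraries under 7%. In the 6 libraries at or over 7% it ran from 37.8 through 40.4 to 45.4 CPM, so the classes did not overlap. Psmb10 was split as cleanly, at 34.9, 40.97 and 47.1 CPM against 24.8, 30.3 and 31.2 CPM (lowest, median, highest). Nlrc5 lay the other way, at 0.307, 0.578 and 0.876 CPM under 7% against 0.528, 1.07 and 1.38 CPM.

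Within single groups that held enough of both classes (4 cortex and 5 hippocampus groups), the ratio of the medians under 7% to those at or over 7% was above 1 in every group for the light chain, the heavy chains and the immunoproteasome. It was 1.44 to 1.74 in the cortex and 1.45 to 2.13 in the hippocampus for B2m, 1.35 to 1.57 and 1.248 to 1.83 for Psmb10, 1.29 to 1.64 and 1.43 to 2.29 for Psmb8, and 1.08 to 1.43 and 1.12 to 2.05 for H2-K1. It stood on both sides of 1 for Tap1 (0.82 to 1.13 and 0.77 to 1.36), Tap2 and Tapbp, and below 1 in every group for Nlrc5 (0.54 to 0.72 and 0.41 to 0.73). All 3 AA + RSD mice, 5 of 6 SS + RSD cortex libraries and 6 of 6 SS + RSD hippocampus libraries were under 7%, against 2 of 8 (cortex) and 2 of 7 (hippocampus) in SS. Comparisons of + RSD groups with controls are therefore also comparisons of the classes, and for each a value with the share as a term of the model is given below. They also set mice of series A against controls that were mostly of series B (6 of 8 SS in cortex and 5 of 7 in hippocampus). The SS controls under 7%, mice 5349 and 5353, were also the only ones of series A. In SS controls the share and the number series therefore cannot be told apart. What sets the share was not tested.

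**Figure D2:**
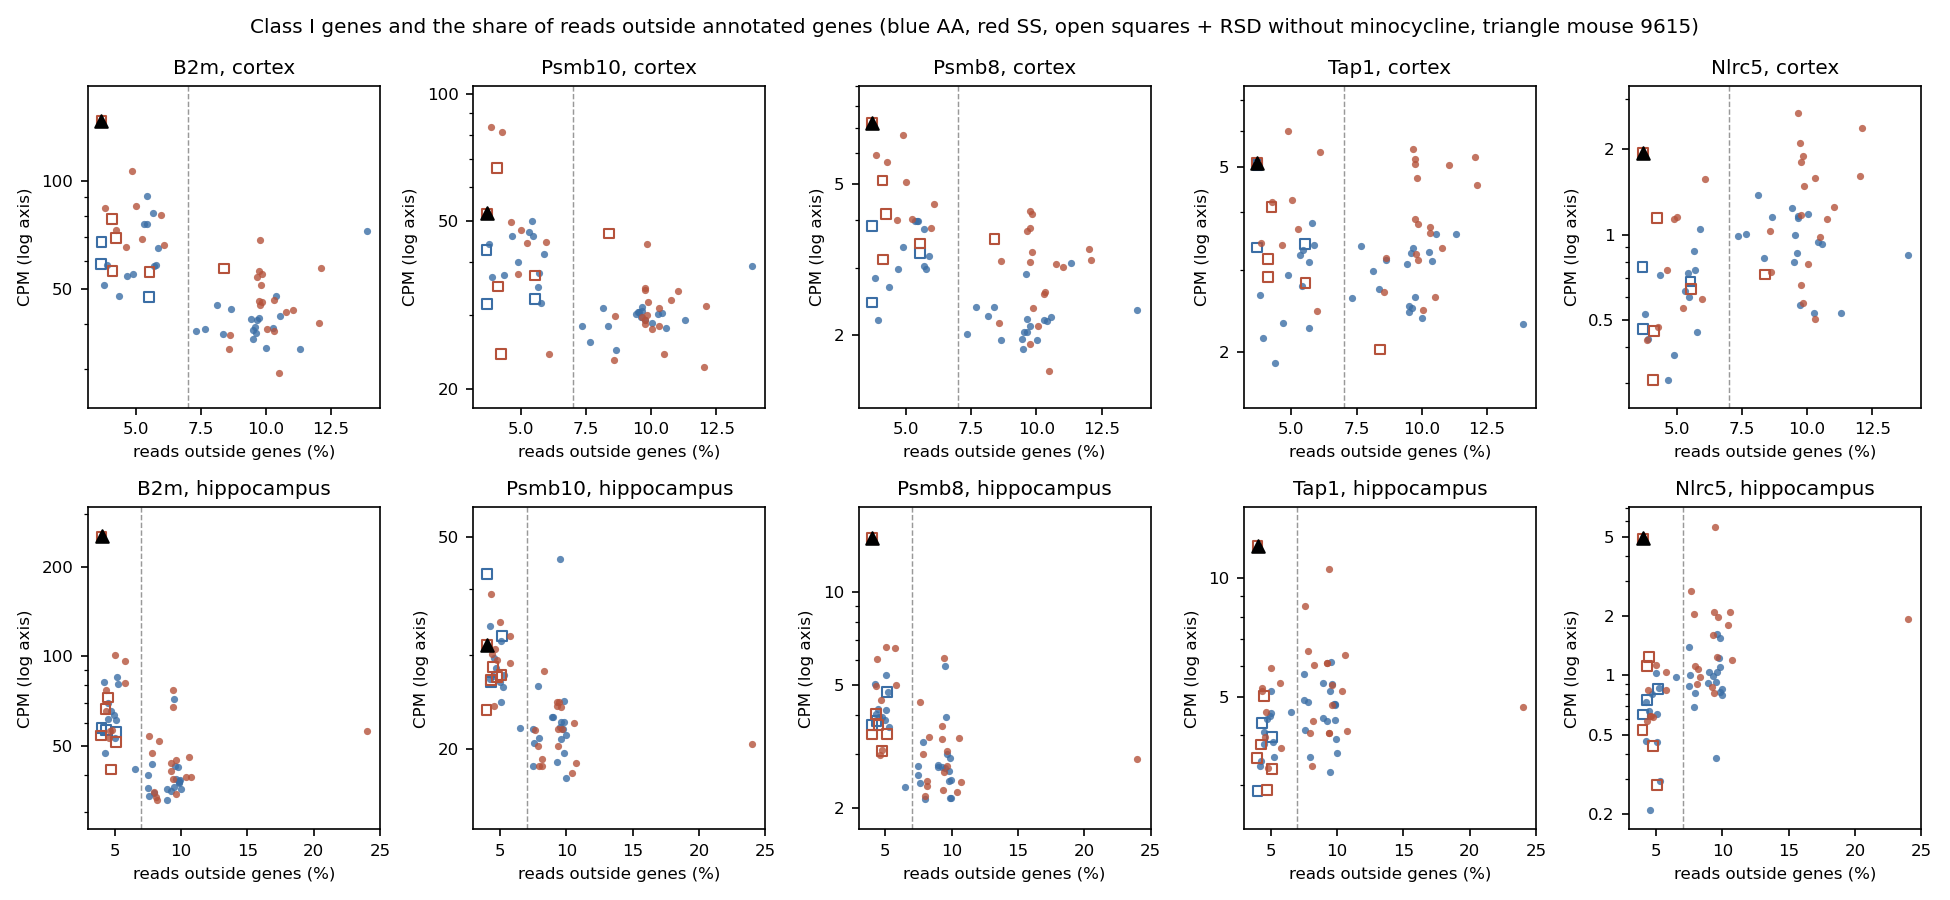
CPM of B2m, Psmb10, Psmb8, Tap1 and Nlrc5 in each library against its share of reads outside genes (percent), for both tissues, with AA in blue, SS in red, + RSD without minocycline as open squares, mouse 9615 as a triangle and a dashed line at 7%. B2m and Psmb10 are high left of the line and Nlrc5 is lower there.

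Mouse 9615 (SS + RSD) stood apart before any comparison. In its hippocampus H2-K1 was at 143 CPM where the other 5 SS + RSD mice ran from 21.02 to 36.5. H2-D1 was at 225 CPM against 36.3 to 48.4, and B2m at 252 CPM against 41.8 to 72.8. These are 5.43, 5.90 and 4.65 times the median of the other 5, and both heavy chains and B2m were higher than in every one of the other 63 hippocampus libraries. The immunoproteasome subunits Psmb8 (14.9 CPM against 3.07 to 4.03) and Psmb9 (5.98 against 0.995 to 2.18) and the transporter subunit Tap1 (12.1 against 2.91 to 5.03) were 3.46 to 4.29 times that median. Nlrc5 was at 4.91 CPM against 0.279 to 1.24, a ratio of 9.28. The genes were not raised alike. Tap2 was at 16.4 CPM (1.57 times), Tapbp at 37.02 CPM (1.41 times) and Psmb10 at 31.4 CPM (1.15 times).

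The cortex of the same mouse showed the same heavy and light chains at smaller ratios. H2-K1 was at 69.8 CPM (25.0 to 35.5 in the other 5), H2-D1 at 132 (39.9 to 58.3) and B2m at 146 (55.8 to 78.2), which is 2.64, 2.85 and 2.56 times the median of the others. Tap1, at 5.12 CPM, and Psmb8, at 7.22 CPM, were the highest of the group, and Tapbp, at 27.7 CPM, lay below its median. Markers of other cells stood apart in this mouse too. In its hippocampus the 6 MHC class II genes summed to 500 CPM (21.6 to 39.6 in the others, with all 6 above every other mouse of the group). The 12 T cell and natural killer cell markers summed to 12.5 CPM (1.46 to 4.66, with 11 of 12 above), the 10 microglial markers to 564 CPM (327 to 389, with 9 of 10 above) and the 7 choroid plexus markers to 9302 CPM (35.995 to 2952, with 7 of 7 above). The B cell and endothelial sums lay within the range of the others. The 25 interferon-stimulated genes summed to 255 CPM there (107 to 153, with 22 of 25 above). The 16 other class I heavy chains summed to 115 CPM (39.7 to 58.3, with 10 of 16 above). In its cortex the choroid plexus markers summed to 16.1 CPM and class II to 143 CPM (29.2 to 43.2). The interferon-stimulated genes summed to 166 CPM in that cortex (120 to 165, with 4 of 25 above). In bulk tissue, more cells of a type and more RNA per cell cannot be told apart, and the part of these cells in the class I values was not tested.

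A second mouse, 9894 (SS + RSD + minocycline), was apart in the hippocampus. Its Nlrc5 was at 5.63 CPM, the highest of all libraries, where the other 13 of its group ran from 0.615 to 2.09. Tap1 was at 10.6 CPM against 3.31 to 6.09, H2-K1 at 61.5 against 17.2 to 47.3 and H2-D1 at 80.8 against 22.9 to 67.1. B2m, at 67.9 CPM, lay inside the range of the others (34.6 to 101), and its cortex values lay within the group. Class II genes (120 CPM against 16.1 to 39.3) and choroid plexus markers (2258 CPM against 23.3 to 1151) were raised in that library too. Over all 64 hippocampus libraries, 8 had a higher choroid plexus sum and 1 had a higher class II sum.

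**Figure D3:**
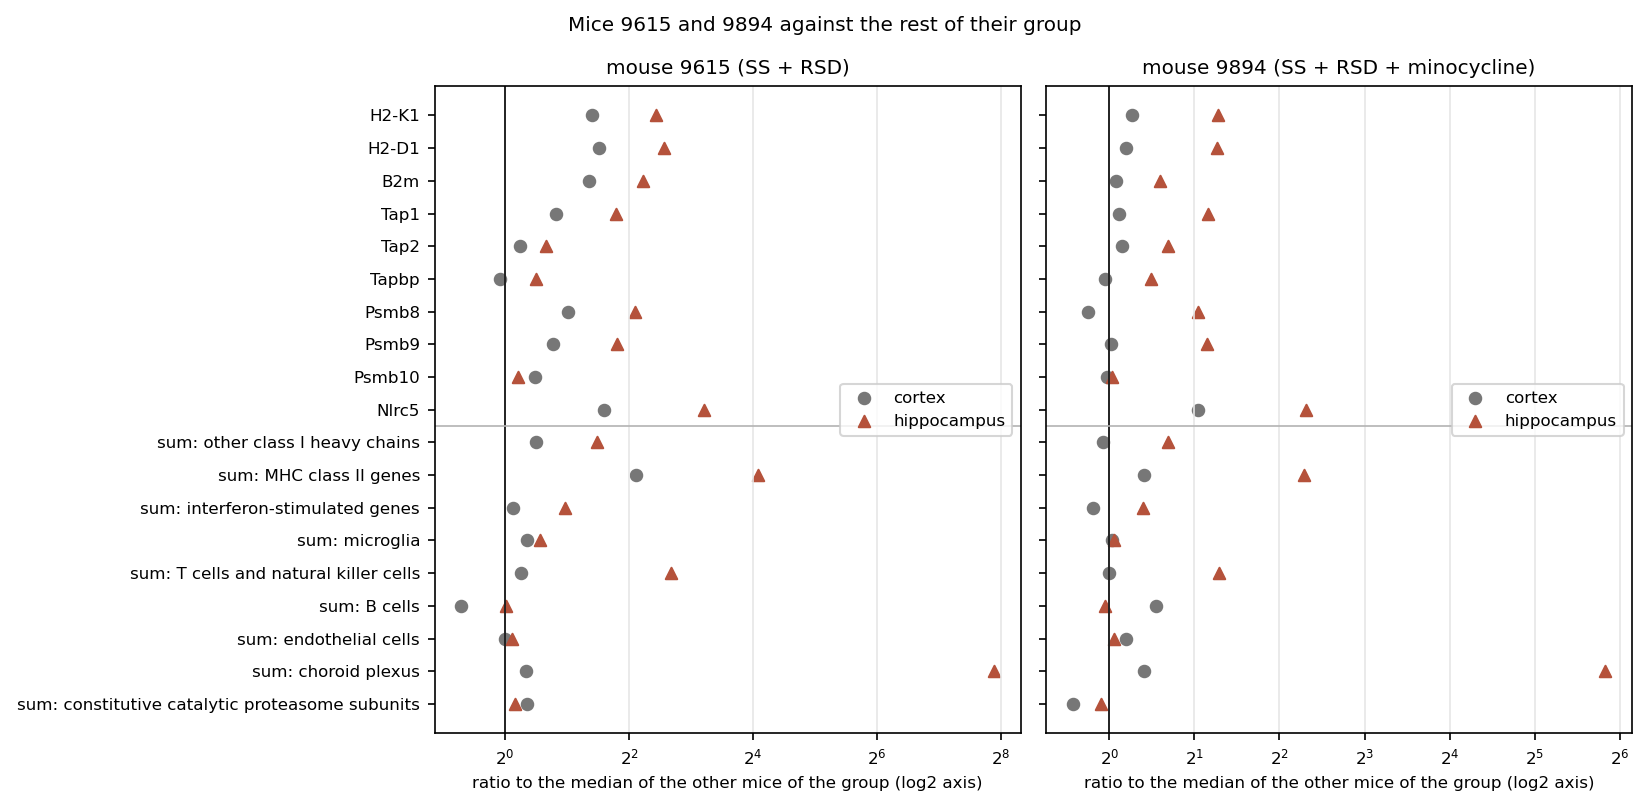
Ratio (log2 axis) of the CPM in mouse 9615 (left) and mouse 9894 (right) to the median of the other mice of the group, for each of the 10 genes and for the summed CPM of other lists, in the cortex (grey circles) and the hippocampus (red triangles). In the hippocampus of mouse 9615 the ratios of the 10 genes run from 1.15 (Psmb10) to 9.28 (Nlrc5), all right of the line at equal levels.

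Between the tissues, the transporter subunit Tap1 was higher in the hippocampus and the immunoproteasome subunit Psmb10 higher in the cortex, in both genotypes. In AA mice Tap1 ran from 2.14 through 2.64 to 3.28 CPM in cortex and from 3.43 through 4.37 to 5.43 CPM in hippocampus, without overlap. In SS mice it ran from 2.46 through 3.78 to 5.21 CPM and from 4.11 through 6.04 to 8.49 CPM, with overlap between mice. Within a mouse the hippocampus was higher in 11 of 11 AA and 7 of 7 SS mice. The log2 fold change was 0.65 ± 0.11 (SE) in AA, with an adjusted p of 9.3e-06, and 0.56 ± 0.14 in SS, with an adjusted p of 0.0013 (edgeR quasi-likelihood test, adjusted over all genes). This test did not pair the libraries of a mouse. Psmb10 ran from 24.8 through 33.03 to 47.1 CPM in AA cortex and from 19.6 through 22.97 to 31.9 CPM in AA hippocampus. The ranges overlapped, and each of the 11 AA and 7 SS mice was lower in the hippocampus. Its log2 fold change was -0.58 ± 0.13 in AA (adjusted p 0.000294) and -0.54 ± 0.16 in SS (adjusted p 0.0074).

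These were 2 of 10 members called in each genotype, where 36.6% of all 19255 genes tested were called in AA and 30.6% in SS. With the mouse as a block the same test called 6 members in AA, where it called 50.2% of all genes. Tap1 (0.67), Psmb8 (0.37) and Tap2 (0.18) were higher in the hippocampus and Psmb10 (-0.53), H2-D1 (-0.29) and Tapbp (-0.13) lower, as log2 fold changes. In SS the block called 3, Tap1 (0.53), Tap2 (0.23) and Psmb10 (-0.55), and 44.5% of all genes. Over the 7 groups with more than 1 mouse, Tap1 was higher in the hippocampus of 57 of 63 mice and Psmb10 lower in 59 of 63. In number series A alone, Tap1 was at 0.46 in AA (adjusted p 0.062) and 0.47 in SS (adjusted p 0.18), and in series B alone at 0.73 (adjusted p 0.0002) and 0.60 (adjusted p 0.0081).

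**Figure D4:**
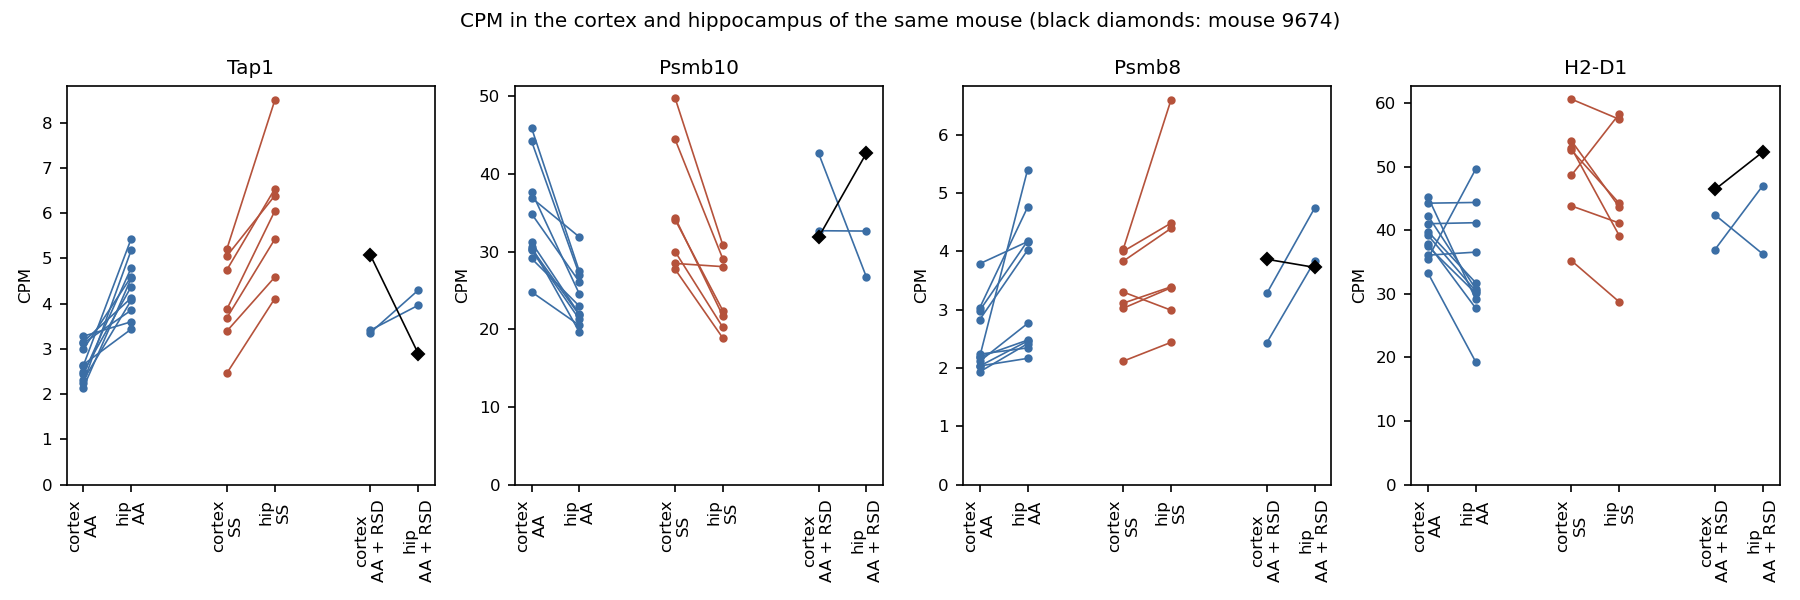
CPM of Tap1, Psmb10, Psmb8 and H2-D1 in the cortex and the hippocampus of the same mouse, joined by a line, for AA, SS and AA + RSD mice, with mouse 9674 as black diamonds. Tap1 lines rise in all 11 AA and 7 SS mice and Psmb10 lines fall in all of them, while mouse 9674 goes the other way for both.

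Whether the genotypes differed was asked in controls, after RSD and after RSD with minocycline. Most members had a higher median level in SS than in AA, except in the hippocampus after RSD. There most medians were lower in SS, such as H2-K1 (27.1 against 29.8 CPM) and H2-D1 (38.2 against 47.01 CPM). Those of B2m, Psmb9 and Nlrc5 were higher. The differences were small against the spread between mice. In control cortex the heavy chain H2-K1 ran from 16.4 through 22.7 to 34.8 CPM in AA and from 18.7 through 27.04 to 32.7 CPM in SS, and 6 of 8 SS mice were above the AA median. H2-D1 ran from 33.3 through 39.5 to 58.8 CPM and from 35.2 through 50.6 to 60.6 CPM. Over all libraries B2m did not follow the heavy chains, at medians of 48.4 CPM in AA and 48.9 CPM in SS. However, 6 of 12 AA but 2 of 8 SS libraries were in the class with the lower share of reads outside genes. Within each class the B2m median was higher in SS, as were those of H2-K1 and H2-D1. For B2m it was 67.1 in SS against 58.2 CPM in AA at the lower share. At the higher share it was 45.1 against 40.4 CPM, and the ranges overlapped in both classes. A value with the share as a term is not given for this comparison. Tap1 had the smallest p. It ran from 2.14 through 2.64 to 3.28 CPM in AA and from 2.46 through 3.78 to 5.21 CPM in SS, and 6 of 8 SS mice exceeded the highest AA value. Its log2 fold change was 0.51 ± 0.14, with an adjusted p of 0.16 (edgeR). The test called 0 of 10 members, where 0.214% of 22926 genes were called. At an unadjusted p under 0.05 there were 3 members, and DESeq2 called 0.

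In control hippocampus the transporter subunit Tap2 had the smallest p. It ran from 8.67 through 11.9 to 12.4 CPM in AA and from 9.86 through 15.3 to 18.8 CPM in SS, and 6 of 7 SS mice exceeded the highest AA mouse. The log2 fold change was 0.36 ± 0.10 with an adjusted p of 0.32 (edgeR). Psmb9 ran from 0.901 through 1.40 to 1.88 CPM in AA and from 1.21 through 2.11 to 3.61 CPM in SS, where 5 of 7 SS mice exceeded the highest AA value. H2-K1 medians were 25.5 and 31.9 CPM, and Nlrc5 medians 0.851 and 1.196 CPM. Here 9 of 10 members had a positive fold change, at a median of 0.36 against 0.01 for all genes, and 0 were called (0.159% of 23215 genes called, 5 members at an unadjusted p under 0.05, 0 by DESeq2).

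After RSD with minocycline, Tap1 was higher in SS than in AA cortex and was the single member called between genotypes. It ran from 1.90 through 3.12 to 3.80 CPM in 18 AA mice and from 2.45 through 4.24 to 5.99 CPM in 14 SS mice. The ranges overlapped, 8 of 14 SS mice being above the whole AA range and 13 of 14 above the AA median. The log2 fold change was 0.49 ± 0.11 and the adjusted p 0.012 (edgeR), where 0.624% of genes were called (0.606% higher), so that 1 of 10 members was called. DESeq2 called Tap1 too (0.50, adjusted p 0.0019). The other members lay the same way, with 10 of 10 fold changes positive at a median of 0.35 and 8 at an unadjusted p under 0.05. Several members moved together across mice, as described below, so these are not 10 independent results. H2-K1 ran from 15.96 through 21.4 to 31.05 CPM in AA and from 19.2 through 29.3 to 44.7 CPM in SS, with 13 of 14 SS mice above the AA median. Nlrc5 ran from 0.374 through 0.852 to 1.24 CPM and from 0.472 through 1.32 to 2.68 CPM, with 7 of 14 above every AA mouse.

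Leaving out each of the 32 mice in turn, a step added after the data had been seen, gave Tap1 values of 0.44 to 0.54 with adjusted p of 0.0044 to 0.037. The fold change kept its size in subsets of those mice while its adjusted p passed 0.05. In number series B alone it was 0.52 (adjusted p 0.057), in libraries at or over 7% of reads outside genes 0.48 (adjusted p 0.081), and in libraries under 7% 0.52 (adjusted p 0.63). With the share as a term of the model, 4 members were called, H2-K1 (0.45), Psmb8 (0.47), Psmb9 (0.50) and Tap1 (0.50), and 0.846% of all genes. T cell and natural killer cell markers moved in the same comparison, with 3 of 9 tested called higher in SS (Cd4, Gzma and Cd3e) and sums of 3.95 to 24.4 CPM in AA and 2.94 to 35.4 CPM in SS. None of the 10 microglial markers was called. The part of these cells in the Tap1 result was not tested. In the hippocampus of the same mice 0 of 10 members were called (2.74% of genes called by edgeR, 2 members at an unadjusted p under 0.05, 0 by DESeq2). Nlrc5 had the smallest p there, at 0.209, 0.904 and 1.62 CPM in AA and 0.615, 1.18 and 5.63 CPM in SS (log2 fold change 0.79, adjusted p 0.14).

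After RSD alone only 3 AA mice were available. H2-D1 had the smallest p in the cortex, at 36.96, 42.4 and 46.4 CPM in AA + RSD and from 39.9 through 47.5 to 132 CPM in SS + RSD (log2 fold change 0.55, adjusted p 0.96, edgeR). In the hippocampus it was H2-K1, at 26.1, 29.8 and 33.6 CPM and from 21.02 through 27.1 to 143 CPM (0.69, adjusted p 0.64). Without mouse 9615 the H2-K1 value turned to -0.093. No member was called in either tissue (0.493% and 0.78% of genes called, 1 and 0 members at an unadjusted p under 0.05, 0 and 0 by DESeq2).

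Averaged over these 3 conditions, a comparison added after the data had been seen, all 10 members had a positive log2 fold change in SS cortex, at a median of 0.30 (0.01 for all genes), and 7 were at an unadjusted p under 0.05. None was called (1.03% of genes called, 0 members by DESeq2). H2-K1 was at 0.38 ± 0.11 with an adjusted p of 0.10. With the share of reads outside genes as a term, H2-K1 (0.45), H2-D1 (0.41), Psmb8 (0.51) and Psmb9 (0.56) were called, with 1.66% of all genes. With mice 9615 and 9894 left out as well, H2-K1 (0.36), Psmb8 (0.47) and Psmb9 (0.51) were still called, with 1.39% of all genes, and H2-D1 was at 0.28 (adjusted p 0.076). In the hippocampus 9 of 10 were positive at a median of 0.34 and 5 were at an unadjusted p under 0.05. Nlrc5 was at 0.88 ± 0.25 with an adjusted p of 0.098 by edgeR and 0.041 by DESeq2, and 0.594% of genes were called. Without mouse 9615 alone the hippocampal median fell to 0.15 and Nlrc5 to 0.54.

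**Figure D5:**
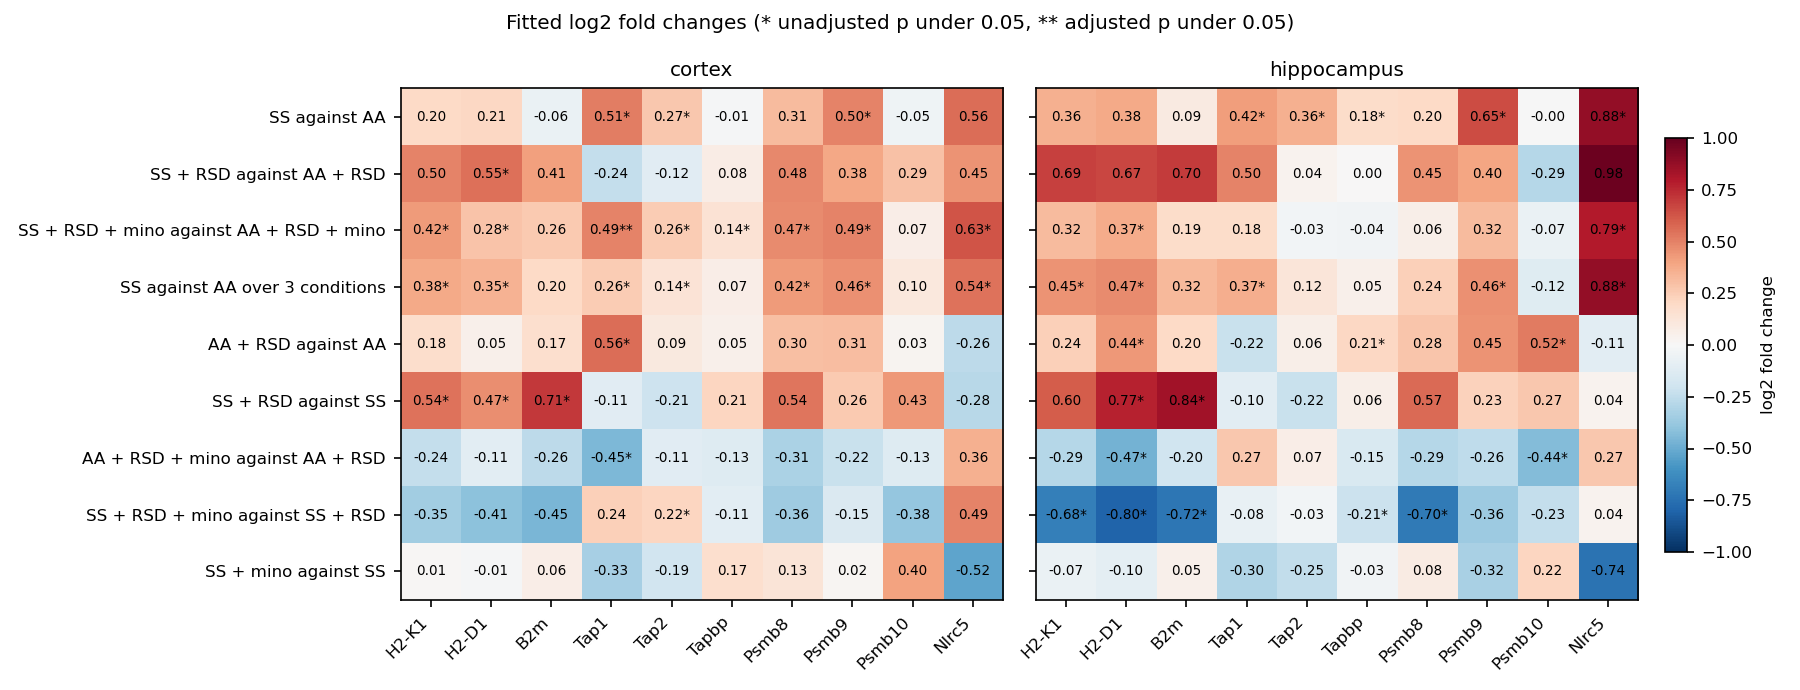
Fitted log2 fold changes (colour and printed value) of the 10 genes in 9 comparisons per tissue, with 1 star for an unadjusted and 2 stars for an adjusted p under 0.05. Tap1 in the cortex of SS against AA after RSD with minocycline (0.49) is the single cell with 2 stars.

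What RSD did in SS mice was asked with and without mouse 9615. In the cortex B2m ran from 37.3 through 48.9 to 68.8 CPM in SS and from 55.8 through 63.1 to 146 CPM in SS + RSD, and 6 of 6 defeated mice were above the SS median. H2-K1 ran from 18.7 through 27.04 to 32.7 CPM and from 25.0 through 30.4 to 69.8 CPM. H2-D1 had a lower median after RSD, 47.5 against 50.6 CPM. The log2 fold change of B2m was 0.71 ± 0.26, with an adjusted p of 0.096 (edgeR). None of the 10 members was called, where 2.57% of 19906 genes were, 3 members had an unadjusted p under 0.05 and DESeq2 called 0. Without mouse 9615, B2m was at 0.38, H2-K1 at 0.20 and H2-D1 at 0.04. With the share of reads outside genes as a term, B2m was at 0.11. Among libraries under 7% alone, 5 defeated against 2 control mice and all of series A, B2m was at 0.32 (adjusted p 1.0, edgeR).

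In the hippocampus B2m ran from 39.6 through 52.1 to 81.3 CPM in SS and from 41.8 through 60.4 to 252 CPM in SS + RSD. Its log2 fold change was 0.84 ± 0.36 with an adjusted p of 0.18. Without mouse 9615 it was 0.18, and with the share of reads outside genes as a term 0.37 (adjusted p 0.94). The heavy chains turned, from 0.77 to -0.082 for H2-D1 and from 0.60 to -0.18 for H2-K1. The median over the members went from 0.25 to -0.13, with 2 of 10 positive without that mouse. Apart from mouse 9615, Tap1 lay at 2.91 to 5.03 CPM after RSD where SS controls ran from 4.11 to 8.49 CPM, and 4 of 6 defeated mice were below every control. No member was called (3.11% of genes called, 2 members at an unadjusted p under 0.05, 0 by DESeq2).

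In AA cortex the transporter subunit Tap1 was above every one of the 12 controls (2.14 to 3.28 CPM) in all 3 defeated mice, at 3.36, 3.41 and 5.07 CPM. Its log2 fold change was 0.56 ± 0.17, the adjusted p being 0.13 (edgeR). The highest value was that of mouse 9674, whose cortex library carried hippocampal markers, and without it the fold change was 0.32 (adjusted p 0.82). With the share of reads outside genes as a term it was 0.54 (adjusted p 0.38). All 7 choroid plexus markers and 5 of 8 hippocampal markers were called higher in this comparison, with choroid plexus sums of 8.85 to 38.5 CPM in AA and 12.3, 25.5 and 5233 CPM in AA + RSD, and none of these markers was called without mouse 9674. The H2-D1 values in AA hippocampus were 36.3, 47.01 and 52.3 CPM after RSD against 19.3, 30.8 and 49.6 CPM (lowest, median, highest) in controls, which is 0.44 on the log2 scale (adjusted p 0.26). Without mouse 9674 it was 0.28, within series A 0.11, and with the share as a term 0.27 (adjusted p 0.59). No member was called in either tissue (0.853% and 1.19% of genes called, 1 and 3 members at an unadjusted p under 0.05, 0 and 0 by DESeq2). Whether RSD acted differently in SS and AA was tested as an interaction. It called 0 of 10 members in the cortex, where Tap1 had the smallest p (-0.75, adjusted p 0.82, and -0.47 without mouse 9674), and 0 in the hippocampus, where it was Tap2 (-0.32, adjusted p 0.87). There 0.236% and 0.0474% of genes were called, 2 and 0 members had an unadjusted p under 0.05, and DESeq2 called 0 and 0.

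Minocycline in defeated mice was compared across number series, and across the classes of the share of reads outside genes. In SS cortex Tap2 ran from 8.21 through 9.65 to 10.9 CPM in SS + RSD and from 10.8 through 11.9 to 17.9 CPM in SS + RSD + minocycline, with 13 of 14 treated mice above every untreated one. Its log2 fold change was 0.22 with an adjusted p of 0.17 (edgeR), where 8.85% of genes were called. In SS hippocampus H2-D1 ran from 36.3 through 38.2 to 225 CPM without and from 22.9 through 35.9 to 80.8 CPM with minocycline (-0.80, adjusted p 0.10, 5.96% of genes called). Without mouse 9615 it was 0.05, and H2-K1 was 0.10. In AA cortex Tap1 was at 3.36, 3.41 and 5.07 CPM without and from 1.90 through 3.12 to 3.80 CPM with minocycline. Its log2 fold change was -0.45 with an adjusted p of 0.086 by edgeR, and -0.47 with 0.036 by DESeq2. Without mouse 9674 it was -0.21. In AA hippocampus H2-D1 was at -0.47 (adjusted p 0.13). edgeR called 0 members in these 4 comparisons (3.6% of genes in AA cortex and 2.67% in AA hippocampus). At an unadjusted p under 0.05 there were 1 in each cortex, 2 in AA hippocampus and 5 in SS hippocampus. DESeq2 called 1 in AA cortex and 0 in the other 3.

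Defeated mice that had been given minocycline were also compared with controls. In AA cortex Tapbp had the smallest p (-0.08, adjusted p 0.88), in AA hippocampus Tap2 (0.13, adjusted p 1.0), in SS cortex B2m (0.25, adjusted p 0.95) and in SS hippocampus Tap2 (-0.25, adjusted p 1.0). edgeR and DESeq2 called 0 members in each, with 0.0319%, 0.0%, 0.0% and 0.0% of genes called by edgeR and 0, 0, 0 and 1 members at an unadjusted p under 0.05. Minocycline without RSD was given to 4 SS mice, whose cortex held H2-K1 at 15.4, 18.7, 31.03 and 37.5 CPM, against 18.7 to 32.7 CPM in SS. Tap2 had the smallest p in both tissues (-0.19 with an adjusted p of 0.79, and -0.25 with 0.98). No member was called (0.0% and 0.0% of genes, 0 and 0 members at an unadjusted p under 0.05, 0 and 0 by DESeq2). Within series B alone, with 2 treated mice against 6 (cortex) and 5 (hippocampus) controls, 5 members were called in the cortex, B2m (0.77), H2-K1 (0.55), Psmb10 (1.22), Psmb8 (0.88) and Tapbp (0.45), and 4 in the hippocampus, B2m (0.74), H2-K1 (0.57), Psmb10 (0.81) and Psmb8 (0.90). In that subset 40.3% (cortex) and 30.1% (hippocampus) of all genes were called. Its control libraries all held over 7% of reads outside genes (at least 8.63% in cortex and 7.60% in hippocampus). The treated cortex libraries held 3.85% and 9.84% and the treated hippocampus libraries 4.31% and 4.36%, so the share moved with the treatment there, and its part in these calls was not tested. The single AA + minocycline mouse had H2-K1 at 22.5 CPM in its cortex and 17.1 CPM in its hippocampus. The comparisons of a genotype share their groups, so their values are not independent of each other.

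Across mice, with the group means taken out, the heavy chains moved together. The correlation of H2-K1 with H2-D1 on the log2 CPM scale was 0.91 over 27 cortex libraries under 7% (0.85 without mouse 9615) and 0.86 over 36 at or over 7%. In the hippocampus it was 0.97 over 28 libraries (0.93 without that mouse) and 0.96 over 35. H2-K1 with B2m was lower, at 0.77 (0.63 without mouse 9615) and 0.51 in the cortex, and 0.93 (0.83) and 0.70 for the hippocampus. For Tap1 with Tap2 the cortical values were 0.29 (0.22 without mouse 9615) and 0.56, and the hippocampal ones 0.72 (0.54) and 0.84. Psmb8 with Psmb9 was at 0.69 (0.60) and 0.40, and 0.92 (0.85) and 0.60. Psmb10 with Nlrc5 was at -0.30 (-0.49) and -0.11, and 0.05 (-0.10) and -0.30. The immunoproteasome subunit of the highest level thus did not follow the transactivator, whose counts were low. The points share libraries, depth and composition, and these values are descriptions.

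The 2 tissues of a mouse were alike for some members. H2-K1 in the cortex correlated with H2-K1 in the hippocampus at 0.76 over 24 mice with both libraries under 7% (0.51 without mouse 9615) and at 0.60 over 33 mice at or over 7%. H2-D1 was at 0.74 (0.44) and 0.46, B2m at 0.64 (0.33) and 0.33, and Nlrc5 at 0.43 (0.13) and 0.44. Tapbp, at 0.06 and 0.01, and Psmb10, at -0.02 and 0.23, hardly did so. The genes outside the set whose levels were most like the mean of the 10 members over 65 cortex and 63 hippocampus libraries were Bst2 (the smaller r of both tissues was 0.746), Irf1 (0.723), H2-Q4 (0.717), Igtp (0.711) and Ifitm3 (0.707). Without mouse 9615 the order was Gnai2 (0.733), Bst2 (0.726), Ifitm3 (0.707), Igtp (0.703) and Irf1 (0.698), with H2-Q4 (0.684) next. Within the classes the 5 genes first named ran from 0.53 (Ifitm3, cortex at or over 7%) to 0.94 (H2-Q4, hippocampus under 7%).

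The rest of the pathway and its neighbours were described from lists, here for SS against AA over the 3 conditions, with 0.746% (cortex) and 0.452% (hippocampus) of all genes called higher. Of the other class I heavy chains 1 of 14 tested was called in the cortex (H2-Q4, 0.65) and 1 of 13 in the hippocampus (H2-Q7, 1.44), both higher in SS. H2-Q7 was not called without mouse 9615 (0.90, adjusted p 0.30), 9894 (1.33, adjusted p 0.051) or 9674 (1.36, adjusted p 0.25), while H2-Q4 stayed called without each of them. None of 12 genes of peptide supply and loading, such as Calr and Canx, none of the 3 constitutive proteasome subunits that the immunoproteasome replaces and none of 19 regulators and interferon receptors was called in either tissue. Of 25 interferon-stimulated genes 3 were higher in the cortex (Rsad2 2.84, Isg15 2.27 and Oasl2 0.61) and 2 in the hippocampus (Rsad2 2.96 and Isg15 2.08), at list medians of 0.23 and 0.20. Oasl2 was not called without any one of these 3 mice (adjusted p 0.062 to 0.15). MHC class II genes, which present to CD4 T cells, were higher in SS for 4 of 6 in the cortex (Cd74 1.33, H2-Ab1 1.39, H2-Eb1 1.21 and H2-Aa 1.27) and for 2 of 6 in the hippocampus (H2-Ab1 1.71 and Cd74 1.73), at medians of 1.24 and 1.57 against 0.01 and 0.00 for all genes. Without mouse 9615 the same 4 were called in the cortex (Cd74 1.02, H2-Ab1 1.16, H2-Eb1 0.95 and H2-Aa 0.96), at a median of 0.95. In the hippocampus none was called without it, at a median of 0.68 (H2-Ab1 0.91 and Cd74 0.92), and none without mouse 9674. Control sums of class II were 13.03 to 28.02 CPM in AA and 20.2 to 34.2 CPM in SS cortex.

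Markers of the cells that carry these molecules were counted in the same comparison. None of 10 microglial markers was called in either tissue, with control sums of 233 to 373 CPM in AA and 244 to 365 CPM in SS cortex. Endothelial markers were higher in SS for 4 of 10 in the cortex (Esam, Kdr, Flt1 and Abcb1a) and 5 of 10 in the hippocampus (these and Pecam1), with control sums of 283 to 451 CPM in AA and 408 to 461 CPM in SS cortex and 268 to 372 and 367 to 497 CPM in the hippocampus. T cell and natural killer cell markers were called for 0 of 9 and 0 of 11 tested, and Klrb1c was at 0 in 46 of 66 cortex and 33 of 64 hippocampus libraries. The B cell markers Ms4a1 and Cd79a were higher in the cortex, and neither was called in the hippocampus. Without mouse 9674 neither was called in the cortex (adjusted p 0.12 and 0.21), and without mouse 9615 Cd79a was not (adjusted p 0.056). Neutrophil markers were higher for 3 of 6 (S100a9, S100a8 and Ngp) and 0 of 4, with Camp at 0 in 52 of 66 and 50 of 64 libraries. The red blood cell genes Hba-x, Alas2 and Slc4a1 were higher in both tissues. Meningeal markers were called for 0 of 6 in each tissue, cortical markers for 0 of 8 in each, choroid plexus markers for 1 of 7 (Folr1, lower) and 0 of 7, and hippocampal markers for 4 of 8 (Tdo2, Prox1, Lct and Dsp, lower) and 0 of 8. Without mouse 9674 the cortex kept 2 endothelial calls (Esam and Kdr), 2 neutrophil calls (S100a9 and S100a8) and none of the choroid plexus or hippocampal ones. The part of these cells in the class I values was not tested.

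In SS + RSD + minocycline against SS + RSD, class II genes were called lower for 5 of 6 in each tissue, at list medians of -1.58 and -2.45, where 8.85% (cortex) and 5.96% (hippocampus) of all genes were called and 0 of the 10 class I members were. In the cortex these were H2-Eb1 (-1.76), H2-Aa (-1.82), H2-Ab1 (-1.59), Cd74 (-1.56) and H2-DMb1 (-0.71). These calls rested on mouse 9615. Without it 0 of 6 class II genes were called in either tissue, at medians of -0.73 and -0.096, and the genes called over all went from 1762 to 863 (cortex) and from 1234 to 16 (hippocampus). The chaperones Calr, Canx and Pdia3, which fold and load class I heavy chains, were called lower in both tissues with that mouse. Without it Canx (-0.40) and Calr (-0.52) were still called in the cortex and none of the 3 in the hippocampus. Number series and minocycline cannot be told apart in that comparison.

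In SS + RSD against SS cortex, Cd74 (1.66), H2-Eb1 (1.54) and Canx (0.42) were called higher, where 2.57% of all genes were called. Without mouse 9615 no gene was called in that comparison, and the values were 0.70, 0.74 and 0.41. In AA + RSD against AA hippocampus H2-T23 (1.21), H2-T22 (0.41) and Tapbpl (0.60) were called higher, where 1.19% of all genes were called. These are single genes, and how many of each list were called in these comparisons is not given here. Without mouse 9674, whose hippocampus library carried cortical markers, H2-T23, H2-T22 and Tapbpl were at 0.48, 0.19 and 0.42, each with an adjusted p of 0.90 (edgeR).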

How the data were processed

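Directional polyA RNA-seq libraries (single reads of 85 bases) of cortex and hippocampus were aligned by the authors to GRCm39 with STAR, and the deposited values are raw counts of reads per gene (GENCODE). Each table lists 55416 genes, of which 5111 have no symbol. Of 134 libraries with a known group, 68 of cortex and 66 of hippocampus, the identical pair in each tissue was left out. A library with conflicting tissue labels was left unassigned, and 3 columns of per-sample values were not used. The members and gene lists were chosen with earlier results of these data known.

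Counts were tested with the edgeR 4.0.16 quasi-likelihood test (R 4.3.3, limma 3.58.1; TMM; genes with low counts filtered by group, minimum count 10 and total 15; Benjamini-Hochberg adjustment over all genes tested, called at an adjusted p under 0.05; all comparisons two-sided). Comparisons within a genotype used 1 model of that genotype's groups and those between genotypes 1 model of all groups. The average over 3 conditions weights them equally. Tissues were compared in control mice. For the block, mouse numbers pair the tissues of an animal (same-mouse deviations correlated at 0.143 to 0.829 in 18 of 18 mice). CPM is the count scaled by the reads on all genes of the library, with a prior count of 2 on the log2 scale. The alternatives were DESeq2 1.42.0, RLE size factors, no filter, only the groups compared, a single number series, a model term for the series or for the share of reads outside genes, and leaving out libraries. The test was tested on simulated data. The text gives a fold change for each member called and, where none was, for the member with the smallest p, and of each list up to 4 called genes with the smallest adjusted p. Values named beyond this rule were chosen after they were seen. Counts of members at an unadjusted p under 0.05 are given without the share of all genes at that threshold. Several members are correlated across mice, so such counts and counts of signs are not of independent genes. Lists: other class I heavy chains, peptide supply and loading, constitutive proteasome, regulators, interferon-stimulated genes, class II, and markers of microglia, T and natural killer cells, B cells, endothelium, choroid plexus, meninges, red blood cells, neutrophils, cortex and hippocampus. Some members of the B cell and red blood cell lists are not reported here, and counts over those lists that include them are left out. Figures were drawn with Python 3.11.15 and matplotlib 3.10.9.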

Additional observations from a re-analysis of the deposited data

Results flagged for a closer look

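In groups of 4 to 10 mice, which were all SS groups, 13 of 60 sets of values had 1 mouse far from all others of its group. For a single set of normally distributed values chance gives about 1 in 20. The 60 sets share mice and correlated genes, so they are not independent. Of these, 11 were mouse 9615 (SS + RSD). In its cortex they were B2m at 146 CPM, H2-D1 at 132 CPM and H2-K1 at 69.8 CPM. In its hippocampus they were B2m at 252 CPM, H2-D1 at 225 CPM, H2-K1 at 143 CPM, Psmb8 at 14.9 CPM, Psmb9 at 5.98 CPM, Tap1 at 12.1 CPM, Tap2 at 16.4 CPM and Nlrc5 at 4.91 CPM. The other sets were mouse 5349 (SS, hippocampus), with B2m at 81.3 CPM where the other 6 ran from 39.6 to 56.4 CPM, and Psmb9 at 3.61 CPM where they ran from 1.21 to 2.23 CPM.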

How the results depend on the processing

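Counts of called members were recomputed under each alternative. DESeq2 called 1 in cortex AA + RSD + minocycline against AA + RSD and 1 in hippocampus SS against AA over 3 conditions. With the share of reads outside genes as a term, 4 were called in cortex SS + RSD + minocycline against AA + RSD + minocycline and 4 in cortex SS against AA over 3 conditions, 3 there without mice 9615 and 9894 as well, and 1 with the number series as a term. In cortex SS + RSD + minocycline against AA + RSD + minocycline, 0 were called in series B alone and 0 in libraries under 7%. In cortex SS + RSD against SS, 1 was called (B2m 0.68) with only the groups compared in the model. In SS + minocycline against SS, series B alone called 5 in the cortex and 4 in the hippocampus. Between the tissues, the mouse as a replicate block called 6 in AA (7038 genes without and 9637 with the block) and series A alone called 1 in SS. Leaving out 1 mouse at a time in the groups of 3 to 6 mice, and mouse 9894 in its group, gave 0 to 0 members in every comparison that holds one of them (for the average over 3 conditions, mice 9615, 9894 and 9674 only). In cortex SS + RSD + minocycline against AA + RSD + minocycline each of the 32 mice was left out, which gave 1 to 1 members. It was not done for SS against AA, AA + RSD + minocycline against AA or the tissues. Over all genes, leaving out 1 mouse in cortex SS + RSD against SS moved the 511 genes called to between 0 and 636, the 0 being without mouse 9615. In hippocampus SS + RSD + minocycline against AA + RSD + minocycline, DESeq2 called 125 genes against 635 by edgeR.

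Fold changes (log2) that changed sign were Tapbp in cortex AA + RSD + minocycline against AA (0.000527 in libraries under 7%), and in cortex SS + RSD + minocycline against SS + RSD H2-K1 (0.0070) and B2m (0.10) with the share as a term. Leaving out 1 mouse in turn moved H2-D1 there from -0.53 to 0.0066, the latter without mouse 9615. In the hippocampus the same step moved Psmb8 in SS + RSD + minocycline against AA + RSD + minocycline to -0.015 without mouse 9894. It moved H2-D1 from -0.94 to 0.046 and H2-K1 from -0.84 to 0.10 in SS + RSD + minocycline against SS + RSD, H2-K1 from -0.093 to 0.84 in SS + RSD against AA + RSD, and H2-K1 from -0.18 to 0.76 and H2-D1 from -0.082 to 0.90 in SS + RSD against SS, the sign changing each time without mouse 9615. The cause was not tested. Within a tissue no paired analysis was possible because each mouse belongs to a single group. The lowest counts, 6 to 9 reads for Nlrc5, limit its precision.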
